A study of Arabidopsis thaliana with 24 samples.

Results

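The miR172 family was followed across small RNA libraries of Arabidopsis thaliana seedlings treated with the stress hormone abscisic acid (ABA). Its members were taken as every deposited entry named as miR172, on either arm of the precursor. This gave 5 mature sequences of the 350 listed in each table, and these 5 sequences carry 8 miRNA names because identical sequences from different loci form 1 entry. Seedlings aged 2 weeks received ABA at 100 µM or a mock treatment, for 4 h. The 4 genotypes were WT Col-0 and 3 lines with T-DNA insertions (abi1td, mkkk17 and mkkk18), all in the Columbia background, and each of the 8 groups had 3 biological replicates, which makes 24 libraries. The insertions lie in ABI1, a protein phosphatase that holds ABA signalling in check, and in MAPKKK17 and MAPKKK18, related kinases that act in ABA signalling. Each gene is represented by 1 line, and the libraries hold whole seedlings, so a change within a few cells and a change in all cells cannot be told apart. mRNAs, including those of the inserted genes and of the miR172 targets, were not measured in these libraries.

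In plants, miR172 pairs with the mRNAs of AP2-like transcription factors, namely AP2, TOE1, TOE2, TOE3, SMZ and SNZ, and limits their translation and stability. These factors delay flowering and hold back adult traits, and AP2 itself also specifies floral organs. miR172 is known to build up as a plant ages while miR156 declines, since the SPL factors that miR156 restrains promote transcription of MIR172 genes. The 3p arm of the precursor is the strand known to guide silencing, and the 5p arm is its partner in the duplex.

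The 5 mature sequences are shown first, because 3 of them share bases 2 to 8 and the values are later set beside their base composition. They are written 5′ to 3′ in DNA letters, as in the deposited tables, with the seed (bases 2 to 8) in capitals. miR172a/b-3p stands for ath-miR172a and ath-miR172b-3p, miR172c/d-3p for ath-miR172c and ath-miR172d-3p, and miR172b/e-5p for ath-miR172b-5p and ath-miR172e-5p.
miR172a/b-3p: aGAATCTTgatgatgctgcat
miR172c/d-3p: aGAATCTTgatgatgctgcag
miR172e-3p: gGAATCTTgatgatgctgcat
miR172b/e-5p: gCAGCACCattaagattcac
miR172d-5p: gCAACATCttcaagattcaga
The 3 sequences of the 3p arm had 1 seed in common. Counted from the 5′ end of miR172a/b-3p, miR172c/d-3p differed by T21G alone and miR172e-3p by A1G alone, so both differences lie outside the seed. The 5p sequences had different seeds and differed at 5 positions of the first 20, as G4A, C7T, A9T, T11C and C20G from miR172b/e-5p to miR172d-5p. The share of G and C bases (GC content) was 38.1% in miR172a/b-3p and 45% in miR172b/e-5p.

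Exact matches to the TAIR10.1 assembly placed each sequence inside an annotated MIR172 precursor and nowhere else on the 5 chromosomes. miR172a/b-3p matched MIR172a (AT2G28056, chromosome 2, 11942914 to 11943015, minus strand) and MIR172b (AT5G04275, chromosome 5, 1188207 to 1188301, minus strand). miR172c/d-3p matched MIR172c (AT3G11435, chromosome 3, 3599776 to 3599908, minus strand) and MIR172d (AT3G55512, chromosome 3, 20587904 to 20588027, plus strand). miR172e-3p matched MIR172e alone (AT5G59505, chromosome 5, 23988472 to 23988596, plus strand). miR172b/e-5p matched both MIR172b and MIR172e, and miR172d-5p matched MIR172d. The level of a shared sequence therefore cannot be assigned to 1 locus, and the 2 arms with the highest levels have only MIR172b in common.

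The sites of 4 of the AP2-like genes are shown to place miR172a/b-3p on its targets over its whole length. Each is the 21-base stretch of the annotated mRNA with the best pairing to miR172a/b-3p, and capitals mark bases that form a mismatch or a G:U pair with it.
AP2: CtgcagcatcatcaGgattct
TOE2: atgcagcatcatcaGgattct
SMZ: TtgcagcatcatcaGgattcC
SNZ: TtgTagcatcatcaGgattcC
All 4 sites lie in coding sequence, at chromosome 4, 17403019 to 17403039 (AP2, AT4G36920, plus strand), chromosome 5, 24210889 to 24210909 (TOE2, AT5G60120, plus strand), chromosome 3, 20373774 to 20373794 (SMZ, AT3G54990, minus strand) and chromosome 2, 16389066 to 16389086 (SNZ, AT2G39250, minus strand). The corresponding sites of TOE1 and TOE3 were also in coding sequence, and bases 5 to 20 were identical in all 6 genes. The TOE2 site had 0 mismatches and 1 G:U pair with miR172a/b-3p, against 1 mismatch and 1 G:U pair in AP2 and 2 mismatches and 1 G:U pair in SMZ. With miR172c/d-3p the AP2 site had 0 mismatches, so the variants of the 3p arm differ in which site they fit best. A pairing of this kind describes the sequences and is no measurement of silencing.

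Within the family, miR172a/b-3p was the main product in every library. It averaged 75.1% of the family's RPM (reads scaled to the library total), with a range from 56.3% to 87.7%, and it ranked 59 of the 350 sequences by mean RPM. miR172b/e-5p, the partner arm, averaged 19.0% and ranked 99. The other 3 sequences stayed near the detection limit, with means of 0.333 RPM for miR172c/d-3p, 0.433 RPM for miR172e-3p and 0.1 RPM for miR172d-5p. They were above 0 in 19, 18 and 10 of the 24 libraries, in that order. Summed over the 5 sequences, the family held from 3.2 to 28.1 RPM per library, or 0.00721% to 0.065% of the RPM of all 350 sequences, so it is a small part of the seedling miRNA pool.

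RPM were rounded to 1 decimal by the authors. In 10 libraries the rounded values resolved into steps of 1 read, which gave totals from 5542891 to 8577112 reads and put 3 reads at 0.35 to 0.541 RPM. All 10 were ABA libraries, and depth in the other 14 libraries was not resolved from the values. The reads that the study lists ran from 10143935 to 14199469 in mock and from 6127364 to 12365605 in ABA libraries. On these listed reads, 3 reads stand at 0.211 to 0.296 RPM in mock libraries, so low values and 0s are not alike between the treatments. Only 2 of the 5 sequences, miR172a/b-3p and miR172b/e-5p, averaged 1 RPM or more over the libraries, the minimum set for a test. The 3 that failed it are described by their values alone, and a listed 0 allows up to 3 reads, which covers counting error only.

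Across groups, the level of miR172a/b-3p was similar in the 4 mock groups and lowest in WT Col-0 after ABA. For this order each library was divided by a scaling factor, the median of its ratios over 127 miRNAs detected throughout. Rescaled, mkkk17 mock averaged 14.5 ± 2.38 RPM, mkkk18 mock 12.6 ± 3.88, abi1td mock 12.5 ± 1.21 and WT Col-0 mock 12.1 ± 1.28 (SD, n = 3 each). They were followed by 10.99 ± 2.98 RPM in mkkk17 ABA, 10.6 ± 6.19 in mkkk18 ABA and 8.12 ± 4.75 in abi1td ABA. WT Col-0 ABA came last at 3.93 ± 1.38 RPM. Each group differed from its neighbour in this order by less than the larger of the 2 SDs, the last step included, where 1 abi1td ABA library lay as low as the WT Col-0 ABA libraries.

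**Figure D1:**
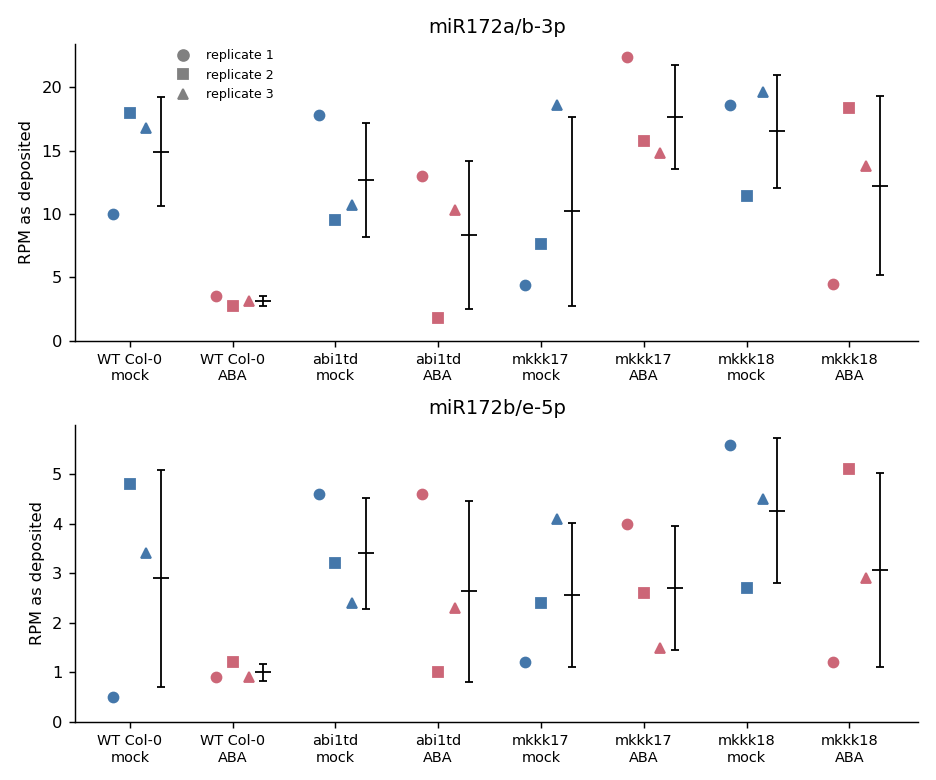
RPM as deposited of miR172a/b-3p (upper panel) and miR172b/e-5p (lower panel) in each of the 24 libraries, grouped by genotype and treatment. Each symbol is a library, with shapes for the replicate numbers, blue for mock and red for ABA, and the black bar gives the mean ± SD of 3 libraries. The WT Col-0 ABA libraries lay between 2.7 and 3.5 RPM for miR172a/b-3p, below the 10 to 18 RPM of the WT Col-0 mock libraries, while the groups of the other genotypes overlapped.

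The first question was whether ABA changed miR172 in WT Col-0 seedlings. miR172a/b-3p, the guide arm, stood at 10, 18 and 16.8 RPM in the 3 mock libraries and at 3.5, 2.7 and 3.1 RPM in the 3 ABA libraries. The ABA values lay close together and all lay below the lowest mock value. Rescaled within WT Col-0, it averaged 12.01 ± 1.51 RPM in mock and 3.76 ± 1.24 RPM in ABA (SD, n = 3 each). The log2 change was -1.58 with a standard error (SE) of 0.30, on the log2(rescaled RPM + 0.5) scale, which corresponds to a 3.00-fold lower level (limma, Benjamini-Hochberg adjusted p = 0.000451). The response of WT Col-0 was broad, since 60% of the 125 tested miRNAs passed an adjusted p of 0.05, 26.4% higher and 33.6% lower, and a call for miR172a/b-3p is read against that background. By log2 change, 18 of the 125 miRNAs had a lower value than miR172a/b-3p. Counting precision was limited: ABA replicates 2 and 3 held 18 and 17 reads of miR172a/b-3p.

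The partner arm did not give a call. miR172b/e-5p was at 0.5, 4.8 and 3.4 RPM in the WT Col-0 mock libraries and at 0.9, 1.2 and 0.9 RPM in the ABA libraries. Its first mock library lay below all ABA libraries, and the other mock libraries lay above them. The log2 change was -0.47 (SE 0.45; 95% interval -1.43 to 0.50, limma, adjusted p = 0.384). Without the first mock library the log2 change was -1.09. Leaving out the lowest mock value fixes a larger fall in advance, so this value is given with no test.

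The low level of miR172a/b-3p in WT Col-0 went together with a dependence of the whole library on base composition. In WT Col-0 the log2 changes of miRNAs with a GC content within 5 percentage points of that of miR172a/b-3p had a median of -0.85, and 25 of these 44 miRNAs were called lower and 3 higher. Of the 44, 10 had a lower log2 change than miR172a/b-3p. Among the 56 neighbours of miR172b/e-5p in GC content, the median was -0.02, with 16 called lower and 13 higher. When a straight line on GC content was taken out of each library, the log2 change of miR172a/b-3p shrank to -0.60 and no longer passed the threshold (limma, adjusted p = 0.0674). Beyond this, the part of base composition in the difference was not tested.

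**Figure D2:**
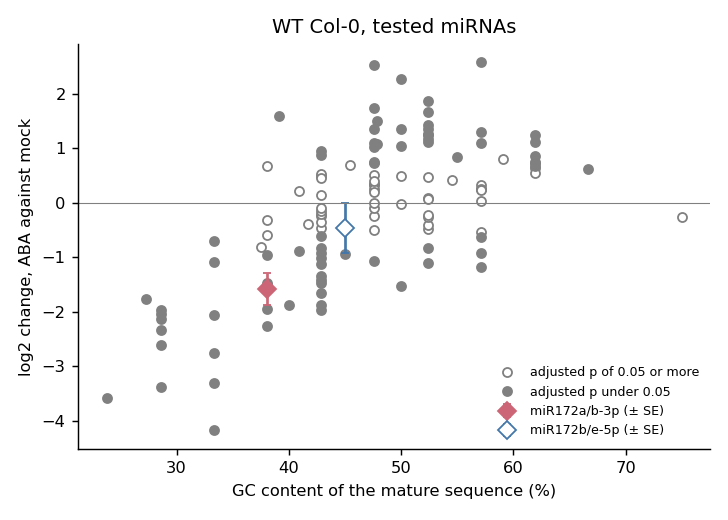
Log2 change between ABA and mock in WT Col-0 against the GC content of the mature sequence for the 125 tested miRNAs. Filled symbols passed an adjusted p of 0.05 and open symbols did not, and diamonds with SE bars mark miR172a/b-3p at -1.58 and miR172b/e-5p at -0.47. AU-rich sequences lay mostly below 0, and miR172a/b-3p lay among them.

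The same relation was seen library by library. The slope of a library over GC content, fitted to its deviations from the mean of the 24 libraries, was from 0.36 to 0.83 log2 units per 10 percentage points in 5 libraries and from -0.27 to 0.16 in the other 19. The 5 were the 3 WT Col-0 ABA libraries, abi1td ABA replicate 2 and mkkk18 ABA replicate 1. Rescaled miR172a/b-3p was from 2.68 to 5.53 RPM in these 5 and from 8.38 to 16.7 RPM in the other 19, with no overlap. Over the 24 libraries the Pearson correlation between the slope and the level was -0.91, and without the WT Col-0 ABA libraries it was -0.85. Within the 19 libraries it was -0.19. This split leaves out the 5 lowest levels, and the narrower range weakens a correlation in advance. All 3 values are descriptions. miR172b/e-5p was from 0.90 to 1.49 RPM in the 5 and from 0.53 to 4.68 RPM in the 19, so its ranges overlapped. With the GC line removed, miR172a/b-3p in log2 units ran from 2.64 to 3.06 in WT Col-0 ABA and from 3.42 to 3.54 in WT Col-0 mock libraries. Neither with nor without the correction did the WT Col-0 ABA libraries stand apart from all mutant libraries. Before the correction they ran from 1.85 to 2.59, with abi1td ABA replicate 2 at 1.67 and mkkk18 ABA replicate 1 at 2.04. With it, lower values were found in abi1td ABA replicate 2 (2.37) and mkkk18 ABA replicate 1 (2.39). Within the WT Col-0 ABA range lay mkkk18 mock replicate 2 and mkkk17 ABA replicate 2, both at 3.03.

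**Figure D3:**
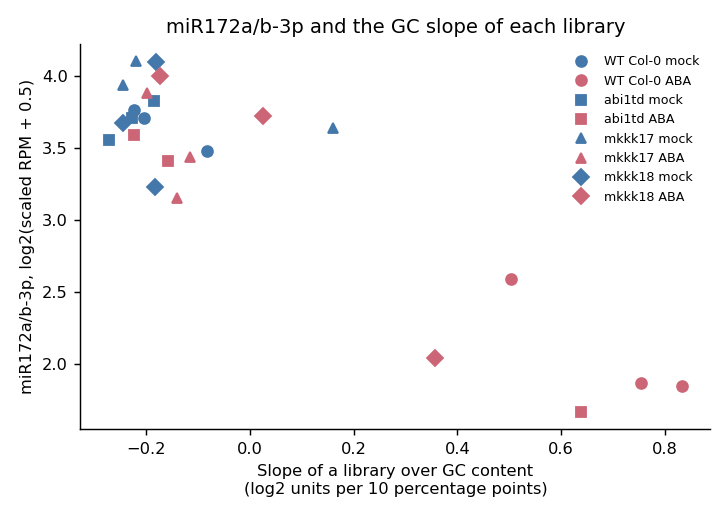
Level of miR172a/b-3p, as log2(rescaled RPM + 0.5), against the slope of each library over GC content in log2 units per 10 percentage points, for the 24 libraries. Shapes give the genotype and colours the treatment. The 5 libraries with slopes from 0.36 to 0.83, all of them ABA libraries, had the 5 lowest levels.

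In the mutants the question was whether the ABA response of miR172 depends on ABI1, MAPKKK17 or MAPKKK18. In abi1td, miR172a/b-3p was at 17.8, 9.5 and 10.7 RPM in mock and at 13, 1.8 and 10.3 RPM in ABA libraries. As deposited, only the second ABA library, which held 13 reads, lay outside the mock range. Rescaled within abi1td, the ABA libraries were at 9.43, 2.45 and 10.8 RPM, against 10.5 to 12.1 RPM in mock. On that scale the first ABA library also lay below the mock range. The log2 change was -0.76 (SE 0.49; 95% interval -1.88 to 0.35, limma, adjusted p = 0.357), where 1.55% of 129 tested miRNAs were called. Without the second ABA library it was -0.21, so most of the difference rested on that library.

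In mkkk17, miR172a/b-3p was at 4.4, 7.6 and 18.6 RPM in mock and at 22.4, 15.8 and 14.8 RPM in ABA libraries. The deposited values were thus higher in ABA on average, with overlapping ranges. The scaling factors, which follow the bulk of the miRNAs, were also higher in ABA than in mock libraries, by 1.40 on the log2 scale. Rescaled, it averaged 13.8 ± 2.37 RPM in mock and 10.7 ± 2.57 RPM in ABA (SD, n = 3 each), and the log2 change was -0.36 (SE 0.35; 95% interval -1.10 to 0.38, limma, adjusted p = 0.739). The sign depends on the scaling, with 0.97 for RPM as deposited (limma, adjusted p = 0.150), and 3.1% of 129 tested miRNAs were called in this genotype.

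In mkkk18, miR172a/b-3p was at 18.6, 11.4 and 19.6 RPM in mock and at 4.5, 18.4 and 13.8 RPM in ABA libraries. The first ABA library, with 26 reads, was the only one below the mock range. The log2 change was -0.38 (SE 0.46; 95% interval -1.38 to 0.61, limma, adjusted p = 0.748), and 3.01% of 133 tested miRNAs were called. Without the first ABA library the value turned to 0.19.

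miR172b/e-5p gave no call in any mutant. In abi1td it was at 4.6, 3.2 and 2.4 RPM in mock libraries, against 4.6, 1 and 2.3 RPM with ABA. Its log2 change was -0.36 (SE 0.35, limma, adjusted p = 0.515). In mkkk18 it was at 5.6, 2.7 and 4.5 RPM in mock libraries, against 1.2, 5.1 and 2.9 RPM with ABA. Its log2 change was -0.34 (SE 0.42, limma, adjusted p = 0.754). Its largest value was in mkkk17, where deposited values of 1.2, 2.4 and 4.1 RPM in mock and 4, 2.6 and 1.5 RPM in ABA libraries became 3.13 to 4.31 RPM and 1.07 to 2.40 RPM after rescaling. The rescaled groups did not overlap, and the log2 change was -1.02 (SE 0.35, limma, unadjusted p = 0.00969, adjusted p = 0.156). With RPM as deposited it was 0.10.

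**Figure D4:**
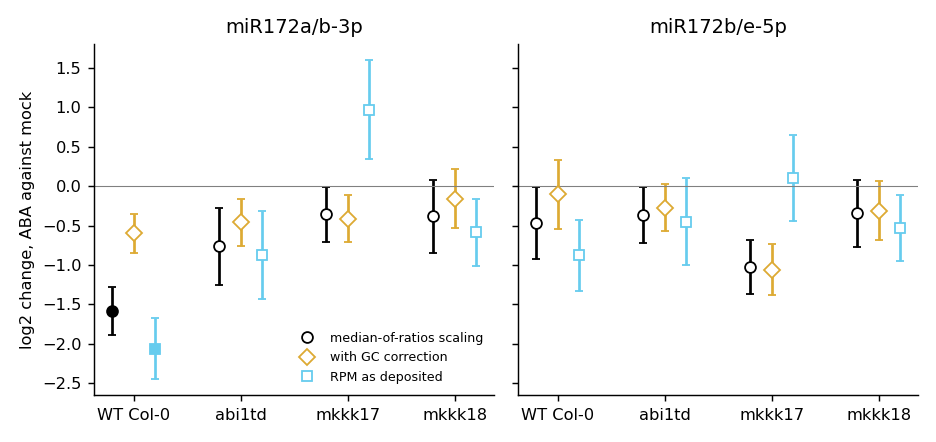
Log2 change between ABA and mock within each genotype (± SE, 3 against 3 libraries) for miR172a/b-3p (left) and miR172b/e-5p (right) under 3 ways of processing the RPM. Filled symbols passed an adjusted p of 0.05. Among the values drawn, those of miR172a/b-3p in WT Col-0 at -1.58 and with RPM as deposited passed, the value with GC correction at -0.60 did not, and the sign in mkkk17 differed between scalings.

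A change called in WT Col-0 and in none of the mutants is not by itself a difference between genotypes, so the difference in response was tested in a fit of all 24 libraries. For miR172a/b-3p, the ABA response of abi1td minus that of WT Col-0 was 0.74 on the log2 scale (95% interval -0.54 to 2.01, limma, adjusted p = 0.444). It was 1.14 for mkkk17 (95% interval -0.13 to 2.42, adjusted p = 0.145 by limma) and 1.13 for mkkk18 (95% interval -0.15 to 2.41, adjusted p = 0.181 by limma). None of the 3 differences passed the threshold, and their intervals reach from no difference to one larger than the WT Col-0 change itself. In these comparisons 1.55%, 34.1% and 13.2% of 129 miRNAs were called, for abi1td, mkkk17 and mkkk18 in that order. For miR172b/e-5p the differences were 0.03, -0.64 and 0.07 (limma, adjusted p from 0.444 to 0.981). All 3 comparisons share the WT Col-0 libraries.

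Leaving out abi1td ABA replicate 2, mkkk17 mock replicate 1 and mkkk18 ABA replicate 1 together gave differences in response of 1.37 for abi1td, 1.01 for mkkk17 and 1.73 for mkkk18. These libraries were chosen for their low deposited miR172a/b-3p, which fixes larger values for abi1td and mkkk18 in advance, so they are given with no test. The mkkk17 difference passed with RPM as deposited, at 3.03 (limma, adjusted p = 0.00167), where 78 of 129 miRNAs were called, a setting that leaves the difference in scaling factors of that genotype in place.

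Mock libraries of the mutants were compared with WT Col-0 mock to see whether the insertions alone changed miR172. miR172a/b-3p differed by 0.05 in abi1td, 0.24 in mkkk17 and 0.02 in mkkk18 on the log2 scale, with SE 0.44 and adjusted p from 0.854 to 0.988 (limma). The 95% intervals of the 3 lines lay between -0.89 and 1.14. miR172b/e-5p was higher by 0.73, 0.90 and 0.64 in abi1td, mkkk17 and mkkk18, values that did not pass either (limma, adjusted p from 0.247 to 0.613). They all rest on WT Col-0 mock, whose first library held 0.5 RPM of miR172b/e-5p. In the mock comparisons 0.775%, 0.775% and 0% of 129 miRNAs were called.

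After ABA, miR172a/b-3p was higher in mkkk17 than in WT Col-0. The 22.4, 15.8 and 14.8 RPM of mkkk17 ABA lay far above the 3.5, 2.7 and 3.1 RPM of WT Col-0 ABA, and the rescaled values of 8.38 to 14.2 RPM against 3.11 to 5.53 RPM did not overlap either. The difference was 1.38 on the log2 scale (SE 0.44; 95% interval 0.48 to 2.29, limma, adjusted p = 0.0150), in a comparison where 41.1% of 129 miRNAs were called. It did not pass with the GC correction, at 0.53 (limma, adjusted p = 0.229), nor without WT Col-0 ABA replicate 2 (1.28), WT Col-0 ABA replicate 3 (1.25) or mkkk17 ABA replicate 1 (1.18).

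The same comparison gave 1.15 for mkkk18 (SE 0.44, limma, adjusted p = 0.0591) and 0.78 for abi1td (SE 0.44, limma, adjusted p = 0.196). In each of these lines 2 ABA libraries lay well above WT Col-0 ABA and 1 lay within or near its range. Without mkkk18 ABA replicate 1 the difference was 1.76, and without abi1td ABA replicate 2 it was 1.40. Each was the ABA library of its line with the lowest miR172a/b-3p. Leaving it out fixes a larger difference in advance, so these values are given with no test. The number of miRNAs called in these settings was 35 of 129 for mkkk18, against 30 with all libraries, and 47 of 130 for abi1td, against 21. With RPM as deposited the mkkk18 difference was 1.62 (limma, adjusted p = 0.0330). miR172b/e-5p differed from WT Col-0 ABA by 0.76, 0.26 and 0.70 in abi1td, mkkk17 and mkkk18, without a call (limma, adjusted p from 0.206 to 0.678). Of 129 miRNAs, 16.3% were called for abi1td and 23.3% for mkkk18, and both comparisons use the same WT Col-0 ABA libraries as mkkk17.

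The ratio of the arms compares members within a library, and the scaling between libraries enters it only through the 0.5 RPM added to each arm. The log2 ratio of deposited miR172b/e-5p to miR172a/b-3p was -3.39, -1.80 and -2.15 in WT Col-0 mock and -1.51, -0.91 and -1.36 in WT Col-0 ABA libraries. The 3 ABA libraries lay above the 3 mock libraries, by 1.19 on average (exact permutation test, two-sided, p = 0.1, the smallest that 3 against 3 libraries allow, 0.2 after adjustment over 4 genotypes). In mkkk17 the order was the opposite, with -1.53, -1.48 and -2.05 in mock and -2.35, -2.39 and -2.94 in ABA libraries, a difference of -0.87 (exact permutation test, two-sided, p = 0.1, adjusted 0.2). Taken from rescaled RPM, an alternative added after seeing the data, the differences were 1.12 in WT Col-0 and -0.66 in mkkk17. With the GC correction they were 0.52 and -0.63, and the WT Col-0 groups then overlapped. In abi1td and mkkk18 the differences from deposited RPM were 0.42 and 0.06, with overlapping libraries (exact permutation test, p = 0.4 and 0.8). Over all 4 genotypes the mean difference was 0.20 (exact permutation of treatment within genotype, two-sided, p = 0.434), so no common shift between the arms was detectable. Because both arms have only MIR172b in common, the ratio does not follow a single precursor.

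**Figure D5:**
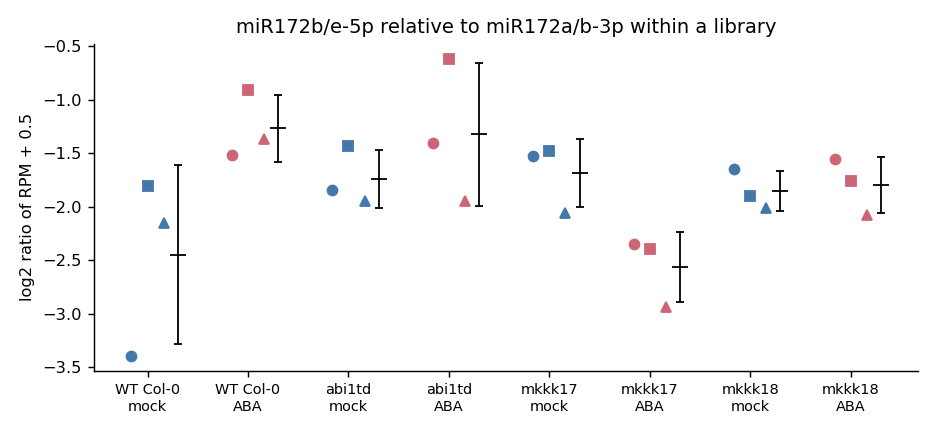
Log2 ratio of miR172b/e-5p to miR172a/b-3p, with 0.5 RPM added to each, in the 24 libraries by genotype and treatment. Symbols are libraries, with blue for mock, red for ABA and the same shapes for replicates as in the plot of RPM, and black bars give mean ± SD of 3 libraries. The ABA libraries lay above the mock libraries in WT Col-0 and below them in mkkk17.

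The 3 low members added values only near the detection limit. miR172c/d-3p was at 0.5, 1.1 and 1.2 RPM in mkkk17 ABA against 0.1, 0.1 and 0.2 RPM in mkkk17 mock libraries. It was at 0.2, 0.9 and 1.1 RPM in mkkk18 mock against 0, 0 and 0.2 RPM in mkkk18 ABA libraries. In WT Col-0 it was at 0.5, 0.2 and 0.1 RPM in mock and at 0, 0 and 0.4 RPM in ABA libraries. miR172e-3p, the product of MIR172e, was at 1.1, 1.1 and 0.9 RPM in mkkk17 ABA against 0, 0.2 and 0.8 RPM in mkkk17 mock libraries, and at 0.5, 1 and 1.1 RPM in mkkk18 mock libraries. miR172d-5p was highest in mkkk18 mock, at 0.4, 0.4 and 0.6 RPM, and at 0, 0 and 0.1 RPM in mkkk18 ABA libraries. These values rest on low read numbers, and none exceeded 1.2 RPM. For scale, 3 reads stood at 0.370 to 0.461 RPM in the mkkk17 ABA libraries. They stood at 0.525 and 0.373 RPM in mkkk18 ABA replicates 1 and 2. In mkkk17 the difference of 1.40 in the log2 scaling factors runs in the same direction.

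The 5 miRNAs outside the family whose rescaled log2 levels followed miR172a/b-3p most closely over the 24 libraries were found among 127 others. They were miR157a/b/c-5p, with a Pearson correlation of 0.88, miR403-3p with 0.88, miR5663-3p with 0.87, miR403-5p with 0.85 and miR158a-3p with 0.84. Their GC contents were 42.9%, 42.9%, 38.1%, 27.3% and 40%. Spearman correlations over the 24 libraries were 0.61, 0.52, 0.49, 0.65 and 0.71 in the same order. Over the 19 libraries with a GC slope up to 0.16 the Pearson correlations were 0.14, 0.15, -0.09, 0.21 and 0.34. The 5 libraries left out had the lowest miR172a/b-3p. Leaving them out narrows its range and weakens a correlation in advance, so no conclusion is drawn from the drop. The points share library, depth and scaling, and the values are descriptions.

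A list of families of the ageing and flowering pathways (miR156, miR157, miR159, miR319, miR390, miR399 and miR824) gives the context of miR172. In WT Col-0, 24 of the 31 listed entries were tested, of which 11 were called higher, 4 lower and 9 not called, where 26.4% of all 125 tested miRNAs were called higher and 33.6% lower. The median log2 change of the list was 0.13, against -0.10 over all 125 tested miRNAs. In abi1td 1 of 24 tested entries was called higher and 0 lower, in mkkk17 1 of 24 higher and 1 lower, and in mkkk18 2 of 25 higher and 0 lower, where 1.55%, 3.1% and 3.01% of all tested miRNAs were called.

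Within this list, both arms of miR157 and of miR824 were called in WT Col-0, in opposite directions. miR157a/b/c-5p, which restrains SPL factors, had a log2 change of -1.34 after rescaling (limma, adjusted p = 0.000404), while its mean as deposited was 651.8 RPM without and 175.5 RPM with ABA. miR157a/b-3p rose by 1.86 (limma, adjusted p = 9.18e-06). From miR156 precursors, miR156f-3p rose by 2.57, miR156b-3p by 1.49 and miR156d-3p by 1.59 (limma, adjusted p from 1.41e-05 to 0.000734). miR824-3p, from the precursor of the miRNA that restrains AGL16, rose by 1.73 (limma, adjusted p = 2.80e-05), and miR824-5p fell by 0.83 (limma, adjusted p = 0.0102). The shared 5p sequence of miR156a to miR156f, the guide arm, gave -0.03 and no call (limma, adjusted p = 0.929). The miR156 and miR157 entries that rose most had GC contents from 39.1% to 57.1%, and miR157a/b/c-5p had 42.9%.

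Set against miR172 within each library, the summed RPM of the 14 miR156 and miR157 entries was 156.3, 195.4 and 184.1 times that of miR172 in the WT Col-0 ABA libraries. It was between 40.7 and 83.6 times in the 12 mock libraries, below every WT Col-0 ABA library. In WT Col-0 the miR156 and miR157 sum was itself lower with ABA, at 794.3 ± 95.8 RPM against 1212.2 ± 259.7 RPM in mock. The miR172 sum was 4.47 ± 0.51 RPM with ABA against 18.4 ± 6.26 RPM in mock (SD, n = 3 each). Ratios of 169 in mkkk18 ABA replicate 1 and 162 in abi1td ABA replicate 2, the libraries of those lines that were low in miR172a/b-3p, lay within the range of the WT Col-0 ABA libraries. The other ABA libraries lay between 49.5 and 78.2 times, inside the mock range. All libraries above the mock range were those with GC slopes from 0.36 to 0.83. The ratio was taken from RPM as deposited, without a GC correction, and the part of base composition in it was not tested. It was looked at after its values were known.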

How the data were processed

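Small RNA of 24 libraries was sequenced by the authors (TruSeq small RNA libraries, Illumina HiSeq). They clipped adapters, filtered the reads by length and quality, and quantified known miRNAs of miRBase release 22 with mirPRo. Values were deposited as RPM rounded to 1 decimal, per library and without pooling. The total behind the RPM is not given in the sources used here. Steps of 1 read were searched for near the read totals that the study lists. They were resolved in 10 libraries, where 100% of values under 60 RPM came out whole within 0.05 RPM, so no comparison had whole reads in all libraries and no count test was run.

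RPM were divided by median-of-ratios factors, and log2(rescaled RPM + 0.5) entered limma 3.58.1 (R 4.3.3) with a variance trend and Benjamini-Hochberg adjustment over miRNAs averaging 1 RPM or more. ABA was compared with mock within a genotype over 6 libraries. Differences in response and between genotypes came from 1 fit of 24 libraries. This scale understates changes of low miRNAs. The fit and the permutation step were tested on simulated data. Sequences were matched to TAIR10.1, since the tables hold no coordinates and the authors' build is not given in the sources used here. Other steps used Python 3.11.15, NumPy 2.4.6, pandas 2.3.3 and matplotlib 3.10.9.

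Alternatives were RPM as deposited, trimmed-mean and summed-RPM scaling, other pseudocounts and filters, a replicate block, a GC correction without and with that block, robust moderation, 1 fit of 24 libraries, and each library left out. Named miRNAs were the miR172 entries, the 5 others with the highest correlation to miR172a/b-3p, and up to 6 of the ageing and flowering list with the smallest adjusted p in WT Col-0. The shared miR156a to miR156f 5p entry, miR824-5p, the GC slopes, the ratio of the families and the split of libraries by slope were looked at after values were seen. Members and lists were chosen with earlier results of these data known.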

Additional observations from a re-analysis of the deposited data

Results flagged for a closer look

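The log2 ratio of miR172b/e-5p to miR172a/b-3p was flagged because 2 genotypes moved in opposite directions. It was higher in all 3 ABA than in all 3 mock libraries of WT Col-0, by 1.19, and lower in all 3 ABA than in all 3 mock libraries of mkkk17, by -0.87. This difference between the genotypes was not tested. The WT Col-0 ABA libraries had GC slopes from 0.50 to 0.83 log2 units per 10 percentage points and those of mkkk17 ABA from -0.20 to -0.11, and the 2 arms differ in GC content (45% and 38.1%). Rescaled RPM in place of deposited RPM, added after seeing the data, gave 1.12 in WT Col-0 and -0.66 in mkkk17. The GC correction of these rescaled values gave 0.52 and -0.63. With it the WT Col-0 groups overlapped (exact permutation test, two-sided, p = 0.5), and those of mkkk17 did not (p = 0.1 by the same test). Without WT Col-0 mock replicate 1, which held 0.5 RPM of miR172b/e-5p, the WT Col-0 difference from deposited RPM was 0.71. Reads of miR172b/e-5p were few, with 8 and 5 in WT Col-0 ABA replicates 2 and 3 and 32, 17 and 11 in the mkkk17 ABA libraries.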

How the results depend on the processing

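Of the comparisons of miR172a/b-3p, 218 tested alternatives kept direction and side of the threshold, 12 changed sign, 7 lost the call and 6 gained it. For miR172b/e-5p the numbers were 207, 22, 0 and 1. The main analysis called miR172a/b-3p only in WT Col-0 and after ABA in mkkk17 against WT Col-0, and miR172b/e-5p nowhere. All 7 losses fell in those called comparisons. Most other alternatives kept their side by staying uncalled, so these numbers do not measure how stable the calls are. Calls gained by leaving out the library lowest in the tested sequence are among the gains. Their direction was fixed in advance. The replicate block left the WT Col-0 change of miR172a/b-3p at -1.58 (limma, adjusted p = 0.000188). Mock and ABA libraries with the same number deviated with mean correlations from -0.18 to 0.16 over the genotypes, with 0.50 for replicate 3 of mkkk18. These values gave no clear pairing by number, and so few pairs cannot settle whether the libraries were paired. With the block alone no call of either sequence changed. With the GC correction, and equally with it and the block, miR172a/b-3p lost its call in WT Col-0 at -0.60 and after ABA in mkkk17 against WT Col-0 at 0.53. Its mock differences turned to -0.051 in abi1td and -0.022 in mkkk18. Those of miR172b/e-5p turned to -0.12 and -0.14 for the response of abi1td and mkkk18 against WT Col-0 and to -0.0046 for mkkk17 against WT Col-0 after ABA, and the ratio of the arms, then taken from rescaled RPM, to -0.14 in mkkk18 and -0.015 over all genotypes. With RPM as deposited, miR172a/b-3p turned to 0.97 in mkkk17, -0.24 in abi1td mock and -0.72 in mkkk17 mock, and passed at 3.03 for the response of mkkk17 and at 1.62 for mkkk18 after ABA, and miR172b/e-5p turned to 0.10 in mkkk17 and 0.98 for its response. A pseudocount of 0.1 gave -0.0041 for miR172b/e-5p in the response of abi1td and -0.0052 for the ratio in mkkk18. Without the 3 libraries chosen for low miR172a/b-3p, a setting with no test for that reason, miR172a/b-3p stood at 1.37 and 1.73 for the response of abi1td and mkkk18 and at 1.41 and 1.76 after ABA, and miR172b/e-5p after ABA at 1.06 and 1.19. The number of miRNAs called there was 48 and 42 of 130 for the responses and 58 and 50 of 130 after ABA. The cause of these changes was not tested.

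Leaving out 1 library gave -1.80 to -1.46 for miR172a/b-3p in WT Col-0, all called. It gave -0.75 to 0.19 in mkkk18, 0.76 to 1.74 for the response of mkkk18 against WT Col-0, -0.055 to 0.11 and -0.20 to 0.24 in mock for abi1td and mkkk18, and 0.44 to 1.40, 1.18 to 1.63 and 0.77 to 1.76 after ABA for abi1td, mkkk17 and mkkk18. For miR172b/e-5p it gave -1.09 to -0.09 in WT Col-0, -0.74 to 0.11 in mkkk18, -0.35 to 0.63 and -0.33 to 0.66 for the responses of abi1td and mkkk18, and -0.025 to 0.46 after ABA in mkkk17. The ratio of the arms in mkkk18 ranged from -0.064 to 0.19. The mean of miR172c/d-3p ranged from 0.296 to 0.348 RPM, and was 0.292 after rescaling.

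Counts of called miRNAs over the planned settings other than leaving out a library were 49 to 83 in WT Col-0 (75 in the main analysis), 0 to 6 in abi1td (2), 0 to 63 in mkkk17 (4, with 63 for RPM as deposited) and 0 to 5 in mkkk18 (4). They were 0 to 2, 32 to 78 and 0 to 21 for the responses of abi1td, mkkk17 and mkkk18 (2, 44 and 17), 0 to 1, 1 to 41 and 0 to 4 in mock (1, 1 and 0; in mkkk18 mock, 24 at an unadjusted p under 0.05), and 5 to 22, 21 to 55 and 13 to 30 after ABA (21, 53 and 30).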
